A study of Homo sapiens with 12 samples.

Results

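Cells labelled MDA-MB-231 and carrying an eGFP/Flag vector were compared with cells labelled MDA-MB-231 and carrying a scramble shRNA. These are the control lines of a study of LSD2 (KDM1B), a histone demethylase, and neither was labelled as altered in LSD2. The comparison used 6 of the 12 arrays of the study, namely the 3 titled eGFP/Flag vector and the 3 titled scramble shRNA, chosen by title alone. Of the 11963 genes compared, 217 were higher and 193 lower in the eGFP/Flag line by the rule given below. The other 6 arrays, 3 of an LSD2 shRNA line and 3 of an LSD2/eGFP/Flag line, are shown beside the members. All 4 groups were transfected and grown in medium with 800 ug/ml of G418, a drug that kills cells without the resistance gene. KDM1B was among the genes of no probe set, and LSD2 itself was not analysed here. The labels call the arrays biological replicates and do not say whether a line was a clone or a pool, so a difference between these groups is a difference between lines and also between vectors.

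MDA-MB-231 is an established human breast cancer cell line without hormone receptors or HER2 amplification, with a mesenchymal shape and strong RAS pathway activity. A scramble shRNA has no intended target, and eGFP/Flag is a fluorescent protein with an epitope tag. A line selected after transfection grows from those cells that took up and kept the vector. Percentile ranks set each gene of such a line against all others in the same RNA.

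The values compared are percentile ranks, from near 0 for the dimmest gene to 100 for the brightest of an array, because the log2 scale differed between the 6 shRNA arrays and the 6 vector arrays, whose values look separately normalized. These are called the shRNA set and the vector set below. A rank is unchanged by any rescaling of a whole array. It is changed by anything that acts on single probe sets, and near the top of the scale a large change in signal moves few ranks. A gene was counted as higher or lower where the group means differed by at least 20 percentile points and the 3 arrays of one group did not overlap the 3 of the other. No p-value is given across the 2 sets. Spread is given as the SD of the 3 arrays of a group, whose median over genes was 0.93 points for scramble and 1.20 points for eGFP/Flag.

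The eGFP/Flag and scramble arrays stood apart as wholes. Ranks correlated across genes at 0.996 to 0.997 within eGFP/Flag, at 0.996 to 0.998 within scramble and at 0.947 to 0.953 between these lines. They correlated at 0.955 to 0.960 between eGFP/Flag and LSD2 shRNA arrays, and at 0.901 to 0.906 between eGFP/Flag and LSD2/eGFP/Flag arrays, so over all genes the eGFP/Flag arrays were nearer to the shRNA set than to the other line of their own set. Genes are not independent replicates, so these are descriptions. Spike-in controls, which do not come from the cells, also differed. Of 24 probe sets for the polyadenylated bacterial transcripts Dap, Lys, Phe and Thr, controls made to be added before labelling, all 24 ranked lower on the eGFP/Flag arrays, and the gap was widest at the 5′ end. The 3 probe sets of a further bacterial transcript, Trpn, were dim on both and differed by -5.62, -4.88 and 2.23 points. The 5′ probe set of the Phe control had a mean rank of 67.3 ± 1.19 (SD, n = 3) among all probe sets on scramble arrays and 8.26 ± 0.95 on eGFP/Flag arrays, and its 3′ probe set 70.9 ± 1.51 and 58.4 ± 0.90. Over the 8 probe sets of each end, the median difference of the eGFP/Flag from the scramble mean was -39.7 points at the 5′ end and -12.2 points at the 3′ end. All 18 probe sets for hybridization controls ranked higher on the eGFP/Flag arrays. The LSD2 shRNA arrays had the ranks of the scramble arrays and the LSD2/eGFP/Flag arrays those of the eGFP/Flag arrays, with 5′ medians of 66.9 and 19.3 points. Controls for RNA of the cells differed too. The 5′ probe set of beta-actin was at 99.5 ± 0.038 on scramble and 91.2 ± 0.94 on eGFP/Flag arrays, while its 3′ probe set was at 99.7 ± 0.032 and 99.7 ± 0.029. The 5′ and 3′ probe sets of GAPDH differed by 0.078 and 0.34 points. The 3 probe sets for 18S ribosomal RNA differed by -41.6, -28.9 and -18.3 points, and the Alu repeat probe set by -14.3 points. The part of these control differences in the gene results below was not tested.

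**Figure D1:**
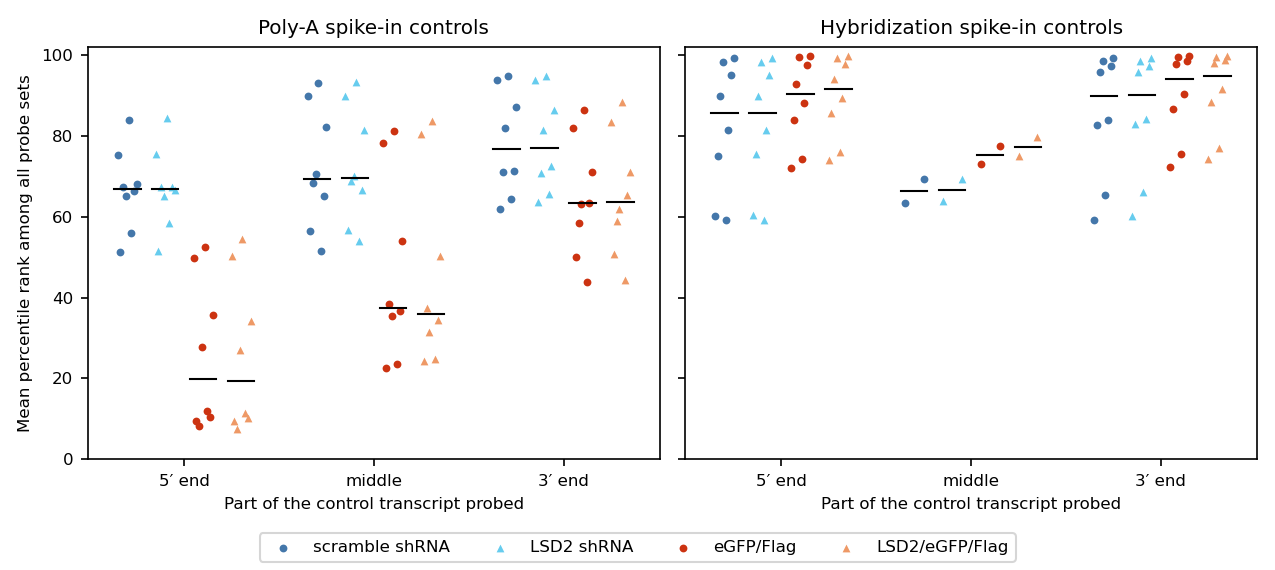
Mean percentile rank among all probe sets (vertical axis) of spike-in control probe sets by the end of the control transcript they probe (horizontal axis). Each point is the mean of 3 arrays for 1 probe set and each line the median. Poly-A controls probed at the 5′ end have a median of 66.9 on scramble and 19.8 on eGFP/Flag arrays, and the LSD2 shRNA and LSD2/eGFP/Flag arrays fall with their own set.

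Many markers of the line, though not all, ranked high in both control lines. Vimentin (VIM), the intermediate filament of mesenchymal cells, had mean ranks of 99.9 ± 0.0084 in scramble and 99.8 ± 0.021 in eGFP/Flag (SD, n = 3). The hyaluronan receptor CD44 was at 95.7 ± 0.55 and 96.1 ± 0.92, caveolin CAV1 at 98.3 ± 0.026 and 99.2 ± 0.15, annexin ANXA1 at 98.3 ± 0.13 and 98.8 ± 0.24, and the receptor EGFR at 86.3 ± 2.29 and 89.4 ± 2.97. E-cadherin (CDH1), the epithelial adhesion protein, was at 11.9 ± 1.71 and 3.98 ± 0.95, and the progesterone receptor gene PGR at 5.54 ± 0.64 and 0.76 ± 0.23, which are dim ranks in both lines. Some luminal markers were not dim, such as MLPH (89.9 and 88.5), KRT19 (77.1 and 73.1) and GATA3 (60.4 and 67.7). The line markers IL6 (33.9 and 28.2) and S100A4 (57.2 and 41.9) were not high. Of 24 measured line markers 1 was higher (CXCL8) and 1 lower (LGALS1), or 8.33% against 3.43% of all genes, and the median difference was 0.21 points. Housekeeping genes had no member past the rule among 23, with differences from -16.9 points (CHMP2A) to 6.24 points (RAB7A). Their median scramble rank was 96.5, so the rule could count few of them as higher. HPRT1, SDHA, POLR2A and REEP5 differed by -13.2, -14.9, -15 and -15.5 points, and the median difference was -0.028 points. The arrays labelled LSD2/eGFP/Flag differed from both in some of these markers, CD44 being at 4.29 ± 0.63, ANXA1 at 11.5 ± 0.78 and CAV1 at 45.4 ± 2.87. Others were nearer to the control lines, VIM being at 97.5 ± 0.60, CDH1 at 4.07 ± 1.67 and PGR at 0.78 ± 0.48. Whether their label is right was not tested, and they are named by it below. In bulk RNA, fewer cells expressing a gene and less RNA per cell cannot be told apart.

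Of the 11963 genes, 410 (3.43%) differed between the control lines by the rule, 217 (1.81%) higher and 193 (1.61%) lower in eGFP/Flag. The difference over all genes had a median of -0.02 points, a 5th percentile of -13.7 and a 95th of 14.1 points. Without a demand on size, 37.4% of genes were higher and 38.1% lower with no overlap between the 3 and 3 arrays, so that absence of overlap alone marks most genes here. The genes next to the threshold were KCNC1 at 20.05 points and FAM3C at 19.99 points on the higher side, and GANAB at -20.01 and S1PR5 at -19.995 points on the lower side. Of the genes past the rule, 90 of the higher and 40 of the lower had both group means under percentile 50, where the values carry no detection call. The brighter line was at percentile 50 or above in 127 higher genes (1.06%) and 153 lower genes (1.28%). The same rule applied to the LSD2 shRNA line against the scramble line, which shares the scramble arrays and lies within one set, gave 14 genes higher (0.117%) and 5 lower (0.0418%).

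**Figure D2:**
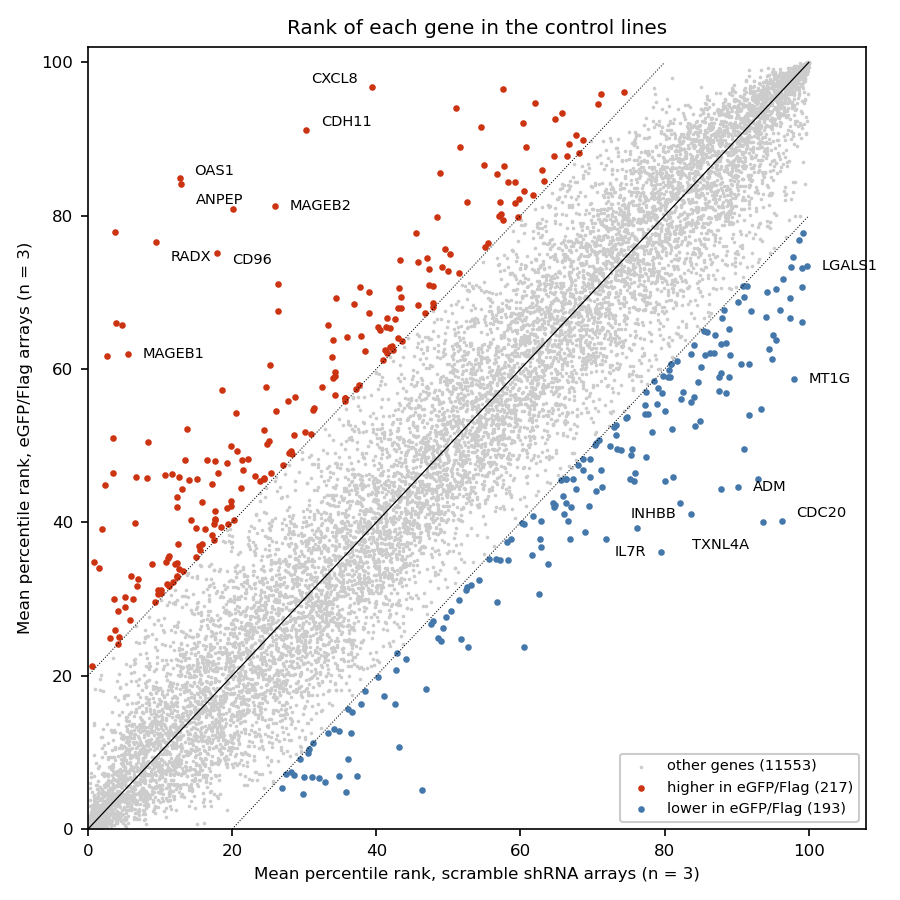
Mean percentile rank of 11963 genes on the 3 scramble arrays (horizontal axis) and the 3 eGFP/Flag arrays (vertical axis). Red and blue points are the 217 higher and 193 lower genes, the solid line marks equal ranks and the dotted lines a difference of 20 points. OAS1, ANPEP and CDH11 lie far above the diagonal and CDC20 and TXNL4A far below.

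Most of these genes divided all 12 arrays along the same line as the normalization. In 338 of the 410 genes, all 6 vector arrays lay on one side of all 6 shRNA arrays (162 of the 217 higher and 176 of the 193 lower genes). Over all 11963 genes, 46.8% divided the arrays in this way, whatever the size of the difference (22.4% with the vector set above and 24.4% with it below). Without the LSD2/eGFP/Flag arrays, the 3 eGFP/Flag arrays lay on one side of all 6 shRNA arrays in 210 higher and 191 lower genes, and in 64.4% of all genes. All eGFP/Flag arrays lie in the vector set and all scramble arrays in the shRNA set. For each of the 410 genes, the line, the vector and the normalization set therefore cannot be told apart in this comparison. Outside the 338 were 55 higher genes (0.46% of all genes) and 17 lower genes (0.142%), which include CDH11 and CD96. In these, an array of the LSD2 shRNA or LSD2/eGFP/Flag line crossed over. Such a crossing does not separate line from set in the eGFP/Flag and scramble arrays.

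The 12 genes with the largest positive differences, among genes at percentile 50 or above in the brighter line, ranged from 74.1 points for BLZF1 to 56.3 points for MAGEB1. BLZF1, which encodes a Golgi matrix protein, had ranks of 3.19, 4.03 and 4.15 on the scramble arrays and 77.6, 77.6 and 78.4 on the eGFP/Flag arrays. OAS1, an interferon-induced sensor of double-stranded RNA, had ranks of 11, 12.5 and 14.9 on scramble and 82.9, 85.3 and 86.5 on eGFP/Flag arrays, a difference of 72.1 points. The cell surface aminopeptidase gene ANPEP was at 12.6, 12.7 and 13.5 and at 81.4, 83.6 and 87.2, a difference of 71.2 points. Each of these genes was dim on every scramble array and bright on every eGFP/Flag array, and the LSD2 shRNA and LSD2/eGFP/Flag means were 6.21 and 80.9 for BLZF1, 18 and 78.3 for OAS1, and 12.9 and 91.5 for ANPEP, each with its own set.

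RADX, which encodes a single-stranded DNA binding protein of replication forks, had means of 9.49 ± 0.76 on scramble and 76.6 ± 1.93 on eGFP/Flag arrays (SD, n = 3). The protease inhibitor gene SERPINA1 was at 3.93 ± 0.91 and 66.1 ± 2.31, and HMGN5, a nucleosome-binding protein gene, at 4.69 ± 0.74 and 65.7 ± 1.14. SPINT1, an inhibitor of membrane serine proteases found in epithelia, was at 20.1 ± 0.98 and 80.8 ± 1.43. The basic helix-loop-helix factor TCF4 was at 1.60, 2.98 and 3.43 on scramble and 61, 61.2 and 62.8 on eGFP/Flag arrays. CXCL8, the neutrophil-attracting chemokine made in quantity by many MDA-MB-231 cultures, was at 34.7, 39 and 44.7 and 96.5, 96.8 and 97.1. The probe set used for it was thus among the brightest on the eGFP/Flag arrays and below the middle on the scramble arrays. These 6 genes also divided the arrays by set, with LSD2 shRNA and LSD2/eGFP/Flag means of 11.9 and 93.9 for RADX, 3.88 and 69.1 for SERPINA1, 4.52 and 75.9 for HMGN5, 19.1 and 68.5 for SPINT1, and 3.73 and 85.3 for TCF4, CXCL8 being at 47.8 on LSD2 shRNA and 97.9 on LSD2/eGFP/Flag arrays.

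CDH11, CD96 and MAGEB1 also varied within a set of arrays. CDH11, a cadherin of mesenchymal cells and osteoblasts, had ranks of 18.6, 32.8 and 39.5 on scramble arrays, more spread than most genes, and 88.3, 90.9 and 94.4 on eGFP/Flag arrays. Its difference was 60.9 points, with LSD2 shRNA arrays at a mean of 81 ± 6.81 and LSD2/eGFP/Flag arrays at 8.46 ± 1.59. CD96, an immunoglobulin family receptor of T and NK cells, was at 15.5, 16.8 and 21.5 and 72.7, 74.7 and 78.1, with LSD2 shRNA arrays at 72.2 ± 4.10 and LSD2/eGFP/Flag arrays at 11.5 ± 0.99. MAGEB1, a cancer-testis gene on chromosome X, was at 5.32, 5.47 and 6.01 and 59.5, 62.7 and 63.6, with both LSD2 lines dim at 5.40 ± 0.39 (LSD2 shRNA) and 17.8 ± 10.1 (LSD2/eGFP/Flag). After quantile normalization of all 12 arrays, the 5 largest differences were 6.25 log2 units for BLZF1, 5.82 for OAS1, 5.73 for ANPEP, 5.47 for CXCL8 and 5.44 for RADX.

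**Figure D3:**
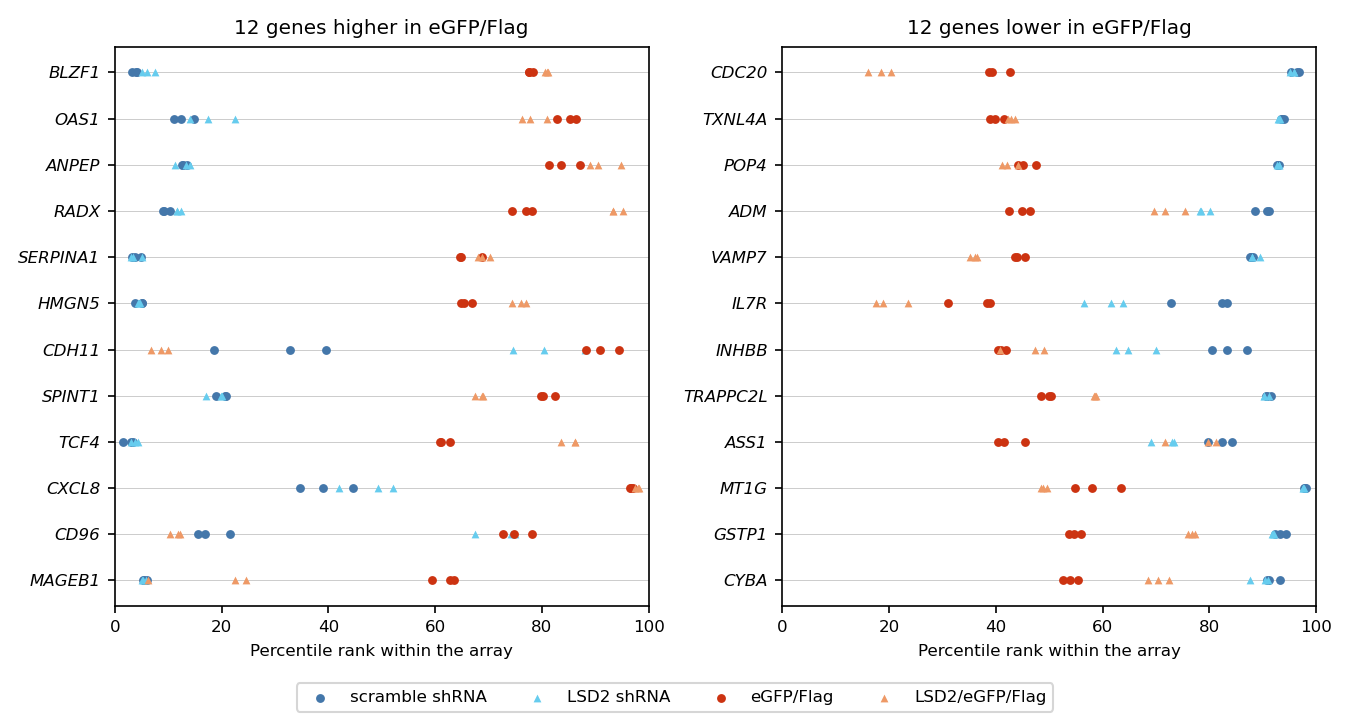
Percentile rank within the array (horizontal axis) of the 12 genes with the largest positive and the 12 with the largest negative difference, 1 point per array and 3 arrays per group. Scramble and eGFP/Flag arrays do not overlap in any row, and CDH11, CD96 and ASS1 are the rows where arrays of an LSD2 line cross over.

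The largest negative difference was that of CDC20, the activator of the anaphase-promoting complex in mitosis. It had ranks of 95.4, 96.5 and 96.8 on scramble arrays and 38.7, 39.3 and 42.6 on eGFP/Flag arrays, a difference of -56 points, and was at 95.7 ± 0.47 on LSD2 shRNA and 18.3 ± 2.19 on LSD2/eGFP/Flag arrays. CDC20 was measured by 1 probe set, and of the 40 measured G2 and M phase genes it was the 1 past the rule, the others lying between -19.3 points (CENPA) and 10.2 points (HMMR). TXNL4A, a spliceosome component, was at 93.5, 93.6 and 94 and 38.9, 39.8 and 41.5, and POP4, a subunit of ribonuclease P, at 92.8, 93 and 93.1 and 44.1, 45.2 and 47.5. VAMP7, a vesicle fusion protein, was at 87.9 ± 0.30 and 44.3 ± 0.94 and TRAPPC2L, a vesicle trafficking factor, at 91.1 ± 0.44 and 49.6 ± 0.92. These genes were bright on all shRNA arrays and nearer the middle of the range on the vector arrays, with LSD2/eGFP/Flag means of 43 for TXNL4A and 42.5 for POP4. The probe set numbers of SPINT1, VAMP7, SERPINA1, TXNL4A, CXCL8, POP4, OAS1, CDC20, ANPEP and ADM (below) lie in this order in a short run. POP4, OAS1 and CDC20 are consecutive in it, with differences of -47.4, 72.1 and -56 points. NDUFB7, ABCD3, DDIT4, NIT1 and SDC3, all lower by the rule, also lie within it, and ABCC1 lies just before it. Several genes of the run are named again in the lists below. BLZF1, RADX and IL7R, among others, lie outside the run. Whether rows were displaced in this run was not tested, so its ranks are given under the gene names as labelled.

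The remaining large negative differences were in genes of signalling and metabolism. Adrenomedullin (ADM), a vasodilator peptide induced by hypoxia, was at 88.6, 90.9 and 91.1 on scramble and 42.5, 44.9 and 46.5 on eGFP/Flag arrays, a difference of -45.6 points. The interleukin-7 receptor gene IL7R was at 72.9, 82.3 and 83.3 and 31, 38.4 and 39, and INHBB, which encodes the beta B chain of activin and inhibin, at 80.5, 83.3 and 87 and 40.4, 41 and 41.8. ASS1, which makes argininosuccinate in arginine synthesis, was at 79.8, 82.3 and 84.3 and 40.5, 41.5 and 45.6, while LSD2/eGFP/Flag arrays were at 77.5 ± 5.13 and thus with the scramble line. GSTP1, a glutathione transferase, was at 93.4 ± 1.02 and 54.8 ± 1.09, and CYBA, a subunit of NADPH oxidases, at 91.7 ± 1.31 and 53.9 ± 1.41. The largest negative log2 differences after quantile normalization were -5.27 for CDC20, -4.78 for TXNL4A, -4.34 for the galectin gene LGALS1, -4.21 for MT1G and -4.17 for POP4. LGALS1 was the lower one of the line markers, at 99.8 ± 0.059 in scramble and 73.5 ± 2.69 in eGFP/Flag.

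Other probe sets of the same genes, which are separate measurements on the same arrays, did not always follow. Their differences are in percentile points over all probe sets of an array. The 217 higher genes included 91 with further probe sets, 158 in all, of which 69 (43.7%) were also at least 10 points higher and 8 at least 10 points lower. The 193 lower genes included 55 with 83 further probe sets, of which 36 (43.4%) were at least 10 points lower and 7 at least 10 points higher. Over all 7101 such probe sets, 11.4% were at least 10 points higher and 13.7% at least 10 points lower. Among higher genes, the share following was 39.3% where the 2 sets of arrays were apart and 58.3% where they were not. Among lower genes it was 43.8% where the sets were apart and 40% (4 of 10 probe sets) where they were not. Another probe set past 20 points in the same direction was found for 29 higher and 10 lower genes.

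The genes with the largest differences behaved unequally in this respect. TCF4 was measured by 7 probe sets, and the 6 dimmer ones had differences of 20.7, 25.6, 31.8, 35.2, 43.5 and 46.7 points. The second probe set of CDH11 differed by 41.2 points and that of HMGN5 by 27.3 points. Those of BLZF1 differed by 1.42 and 22.4 points, those of SERPINA1 by -3.36 and 15.5 points and that of CXCL8 by 12.9 points. The second probe set of OAS1 (2.61 points, from 22.3 to 24.9) showed almost none of the difference. That of RADX (1.11 points) was at the bottom of the range in both lines, at 1.10 on scramble and 2.21 on eGFP/Flag arrays. In and near the run of probe set numbers given above, some eGFP/Flag means stood near the scramble mean of the preceding number. They were 88.4 for OAS1 beside 94.2 for POP4 and 87.8 for ANPEP beside 84.2 for DDIT4. Within TXNL4A they were 47.4 beside 51.9, and within ABCC1 84.1 beside 87.4. For CDC20 beside OAS1 they were unlike, at 47.7 and 16.5. A displacement of rows was not tested. On the lower side the second probe set of TXNL4A differed by -14.9 points, and ADM, CDC20 and POP4 had 1 probe set each. Among genes chosen here for several concordant probe sets, the synaptic calcium sensor SYT1 was 33.6 points higher with 44.4 points by the second probe set, and the growth factor pleiotrophin (PTN) was 41.2 points higher with 11.9, 42.9 and 54.9 points by the other 3. The mitochondrial ribosomal protein gene MRPS12 had a difference of -31.7 points, with -30.9, -21.2 and 7.80 points by its other probe sets. RPLP2, an acidic ribosomal stalk protein, was 43 points higher and 23.2 points higher by the second probe set, and its LSD2/eGFP/Flag mean was 94.3 ± 0.55.

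**Figure D4:**
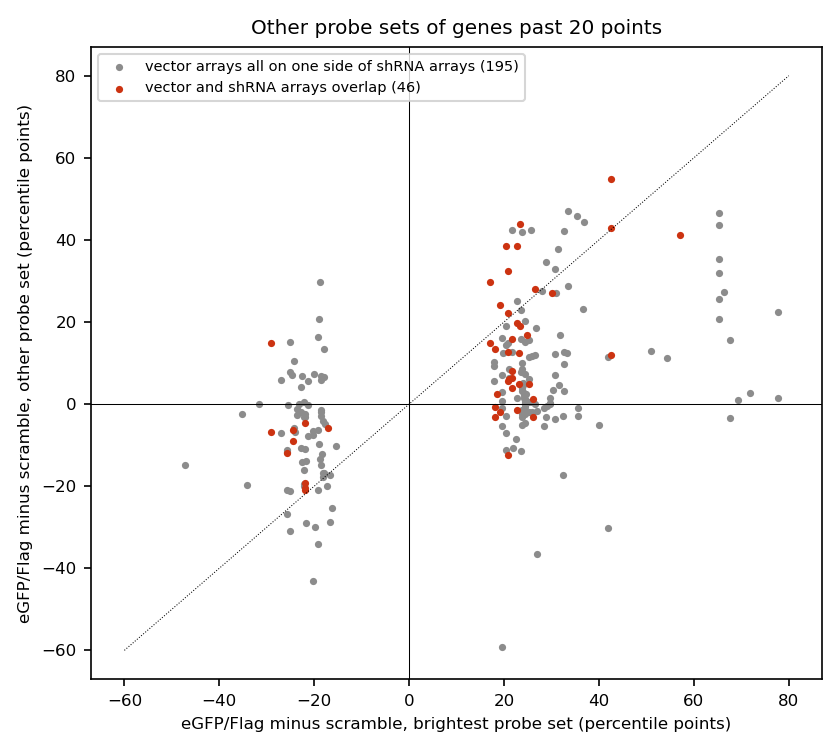
Difference of mean percentile rank, eGFP/Flag minus scramble, for the brightest probe set of a gene (horizontal axis) and for each of its other probe sets (vertical axis), for genes past the rule. The dotted line marks equal differences. Of 158 points on the right 69 lie at 10 points or more, and the vertical columns of points are genes with many probe sets such as TCF4.

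In 35 of the higher and 18 of the lower genes, singled out after the values were seen, the LSD2 shRNA arrays lay at least 10 points from the scramble mean, without overlap, on the side of the eGFP/Flag line, and 0 lay as far on the other side. Over all genes, 83 (0.69%) lay that far above and 64 (0.53%) below. Both comparisons share the scramble arrays, so the values are given side by side without a test of their likeness. MAGEB2, a cancer-testis gene neighbouring MAGEB1, was at 21.9, 27.6 and 28.5 on scramble and 79.97, 81.4 and 82.3 on eGFP/Flag arrays, with LSD2 shRNA at 65.2 ± 1.15 and LSD2/eGFP/Flag at 87.2 ± 0.90. CDCP1, a transmembrane substrate of SRC kinases, was at 36.2, 39.9 and 40.8 and 65.3, 66.9 and 69.7, with LSD2 shRNA at 64.5 ± 3.53 and LSD2/eGFP/Flag at 22.9 ± 3.93. The EGFR ligand epiregulin (EREG) was at 64.6, 65.7 and 67 and 92.5, 93.5 and 94.3, with LSD2 shRNA at 86.1 ± 0.96 and LSD2/eGFP/Flag at 2.50 ± 1.24. In these genes the scramble line was the low one of the 3 lines with high ranks of CD44, ANXA1 and CAV1.

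The immediate early factor EGR1 was at 54.5, 56.3 and 60.6 on scramble and 79.8, 80.3 and 85.1 on eGFP/Flag arrays, with LSD2 shRNA at 77.1 ± 2.08 and LSD2/eGFP/Flag at 50.3 ± 22.8. The membrane protein EMP1 was at 74.4 ± 0.73 and 96.1 ± 0.59 and its other probe sets differed by 15 and 29.8 points, with LSD2/eGFP/Flag at 6.28 ± 2.04. PTN was at 26.3 ± 2.12 and 67.5 ± 3.30, and the LIM domain binding protein gene LDB2 at 13.8 ± 3.82 and 52.1 ± 2.79, with LSD2 shRNA between them at 44 ± 1.32 and 32.8 ± 3.69. LTBP1, which anchors latent TGF-beta in the matrix, was at 57.8 ± 6.07, 71.2 ± 5.50 (LSD2 shRNA) and 86.4 ± 1.97. PLA2G4A, the phospholipase that frees arachidonic acid, was at 34.5 ± 5.19, 44.6 ± 2.80 (LSD2 shRNA) and 69.3 ± 2.20. PTGS2, the prostaglandin synthase that uses it, was at 4.08, 8.14 and 12.8 on scramble and 49.4, 50.3 and 51.7 on eGFP/Flag arrays, with LSD2 shRNA at 17.4 ± 3.64, under 10 points from scramble.

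Among lower genes of this kind, the secreted olfactomedin gene OLFML3 was at 58.2, 61.6 and 67.8 on scramble and 24.8, 30.3 and 37 on eGFP/Flag arrays, with LSD2 shRNA at 37.1 ± 3.78. IL7R and INHBB had LSD2 shRNA means of 60.6 ± 3.69 and 65.7 ± 3.83, between the control lines. The monocyte chemokine CCL2 was at 30.6, 34.9 and 39.1 and 6.54, 7.06 and 7.12, with LSD2 shRNA at 13 ± 2.13, all below the middle of the array. IGFBP7, a secreted insulin-like growth factor binding protein, was at 94.1 ± 1.24 and 70.1 ± 2.34, while its other probe sets differed by -2.01 and -1.48 points, and the myosin light chain gene MYL9 at 76.1 ± 1.14 and 39.3 ± 1.78. SERPINF1, which encodes an antiangiogenic serpin, was at 60.4 ± 0.35 and 23.7 ± 4.97, with LSD2 shRNA at 47.2 ± 2.26 and LSD2/eGFP/Flag at 80.3 ± 4.28.

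**Figure D5:**
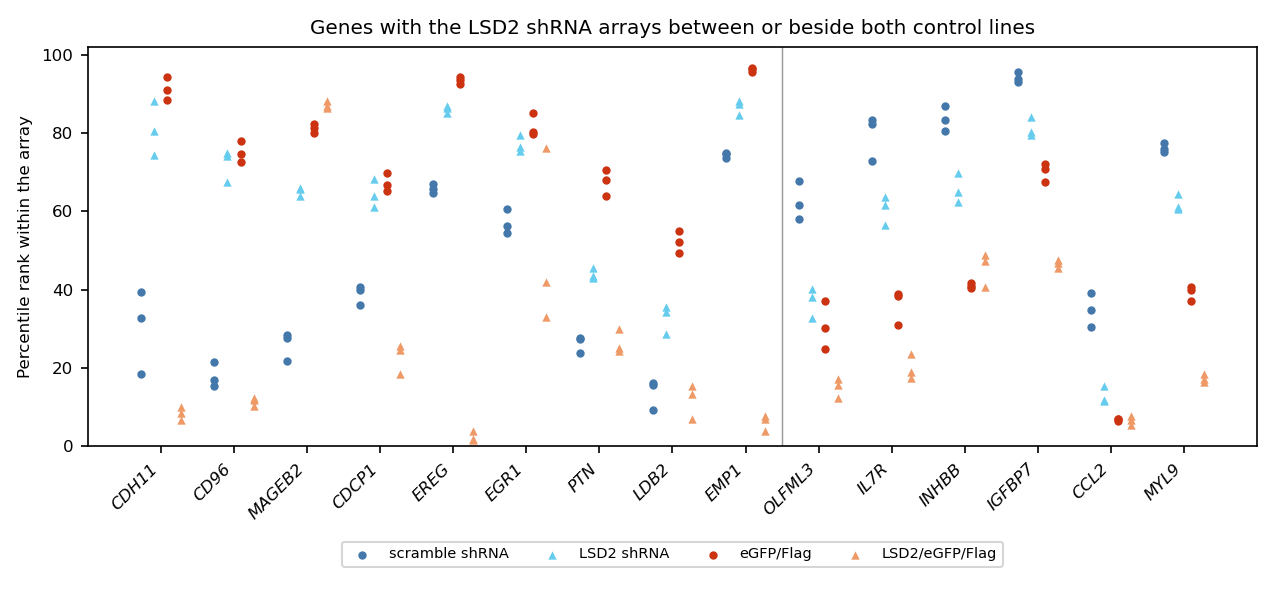
Percentile rank within the array (vertical axis) of 15 genes chosen after their values were seen, 1 point per array and 3 arrays per group, with genes higher in eGFP/Flag left of the line and lower ones right of it. The LSD2 shRNA arrays lie between the control lines or beside the eGFP/Flag arrays, for example in CDH11, where the means are 30.3 for scramble, 81 for LSD2 shRNA and 91.2 for eGFP/Flag.

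In 43 of the higher and 14 of the lower genes, also singled out afterwards, the LSD2/eGFP/Flag arrays lay at least 20 points from the eGFP/Flag mean, without overlap, on the side of the scramble line, and in 16 higher and 13 lower genes they lay as far on the other side. Over all genes, 427 (3.57%) lay that far above and 477 (3.99%) below. Both comparisons share the eGFP/Flag arrays. TGFA, an EGFR ligand, was at 48.7, 52 and 56.8 on scramble and 80.3, 82.3 and 82.6 on eGFP/Flag arrays, while its 2 dimmer probe sets differed by -3.17 and 1.12 points. CASP8, the initiator caspase of death receptors, was at 66.8 ± 1.89 and 89.3 ± 0.13 (2.50 points by its second probe set), and the collagen receptor subunit ITGA2 at 49.1 ± 1.31 and 73.2 ± 1.84. The matricellular protein gene CCN3 was at 45.5 ± 2.90 and 77.7 ± 2.53, and the actin-bundling protein gene LCP1, which leukocytes and many cancer lines express, at 43.3 ± 0.49 and 74.3 ± 1.51. HTR2C, a serotonin receptor gene on chromosome X, was at 3.40, 3.46 and 3.58 and 50.3, 50.8 and 52.1, with a second probe set at 11.2 points. CHRDL1, a BMP antagonist also on chromosome X, was at 24.7 ± 1.48 and 57.7 ± 1.95. The LSD2/eGFP/Flag arrays, which differ in line markers as given above, were at 24.5 for TGFA, 3.94 for CCN3 and 17.2 for CHRDL1.

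Of 9 measured metallothionein genes, which lie in 1 cluster on chromosome 16, 6 were lower in the eGFP/Flag line and 0 higher, a family gathered after its values were seen. Over all genes 1.61% were lower. MT1G was at 97.8, 98 and 98.1 on scramble and 54.9, 58 and 63.5 on eGFP/Flag arrays, and MT1X at 98.8, 99.1 and 99.1 and 62.8, 67.3 and 68.3. MT1H was at 97.1, 97.5 and 97.7 and 62.9, 67 and 69.8, MT1F differed by -30.5 and MT1E by -21.5 points, and the neural member MT3 by -21.9 points from a middle rank of 50.4. MT2A did not pass the rule at -8.74 points, from 99.5 ± 0.084 to 90.8 ± 1.47, and differed by -2.42 log2 units after quantile normalization. MT1M (1.04 points) and MT4 (-0.017 points) were below the middle of the array in both lines. The 6 lower genes divided the arrays by set, with an LSD2/eGFP/Flag mean of 48.9 ± 0.53 for MT1G. Metallothionein transcripts are nearly identical, and probe sets with names ending in x_at, such as those of MT1E, MT1F, MT1G, MT1H, MT1X and MT2A, can hybridise with several of them, so these are not 6 separate observations. The second probe set of MT1X differed by -26.7 points, that of MT1E by -25.3, that of MT1F by -6.81 and that of MT1G by less than 1 point.

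Metallothionein promoters bind the zinc sensor MTF1 through metal response elements. The sequences of MT1H and MT1X, members past the rule, and of MT2A, which was not, show where letters matching their core lie. They are the 250 bases before the start from RefSeq on GRCh38.p14, plus strand, at chr16:56669564-56669813, chr16:56682220-56682469 and chr16:56608334-56608583, written 5′ to 3′ with capitals at each match to TGCACNC or TGCGCNC on either strand.
MT1H: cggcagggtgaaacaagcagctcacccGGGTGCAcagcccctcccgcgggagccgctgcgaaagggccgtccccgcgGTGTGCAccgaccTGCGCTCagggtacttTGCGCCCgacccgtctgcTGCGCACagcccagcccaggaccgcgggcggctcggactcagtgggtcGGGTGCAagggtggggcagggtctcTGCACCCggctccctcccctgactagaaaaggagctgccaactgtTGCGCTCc
MT1X: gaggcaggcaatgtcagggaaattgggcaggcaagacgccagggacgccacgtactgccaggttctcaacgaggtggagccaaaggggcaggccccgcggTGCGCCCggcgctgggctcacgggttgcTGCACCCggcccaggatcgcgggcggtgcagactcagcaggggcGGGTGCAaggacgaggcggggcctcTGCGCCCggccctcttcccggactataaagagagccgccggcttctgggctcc
MT2A: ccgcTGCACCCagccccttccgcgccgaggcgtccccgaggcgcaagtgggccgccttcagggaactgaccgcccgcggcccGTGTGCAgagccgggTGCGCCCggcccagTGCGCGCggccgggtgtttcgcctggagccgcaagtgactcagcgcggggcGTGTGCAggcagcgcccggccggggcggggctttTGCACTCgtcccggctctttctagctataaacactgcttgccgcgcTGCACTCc
The matches, which may overlap each other, numbered 8 in MT1H, 4 in MT1X, 7 in MT2A and 3 in MT4, a member with almost no difference. Of 27305 promoters of the same length in the RefSeq table, 24.7% held at least 1 match, 0.37% held as many as MT1X, 1.56% as many as MT4 and 0.018% as many as MT1H. A match is a description of the letters, and binding was not measured.

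Of 1120 measured genes in the 51 lists, 63 passed the rule (5.6%, against 3.43% of all genes), 30 higher and 33 lower. The median difference was within 5 points of 0 in 50 lists. In 15 lists no member was past the rule, in 20 lists 1, in 13 lists 2 or 3, and in 3 lists 4 or 5. Against the 3.43% of all genes, the cadherin list stood at 26.3%, ABC transporters at 16% and heat shock and oxidative stress genes at 15.4%, the last consisting of 4 metallothioneins. These are counts of 5, 4 and 4 genes, all but CDH11 and ABCA1 dividing the arrays by set. Of the ABC transporters, ABCD3 lies in the run of probe set numbers given above and ABCC1 just before it. Lists are described here by counts and medians, with no test. The counts in the paragraphs below stand beside the same 3.43% of all genes.

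Adhesion genes differed singly. Of 19 cadherin and catenin genes 3 were higher, namely CDH11, CDH10 (26.3 points, from 3.64 ± 0.046 to 29.98 ± 1.75) and CDH6 (22.2 points, from 17.6 ± 1.39 to 39.8 ± 0.41), whose other probe sets differed by -1.88, 0.50, 6.07 and 11.4 points. The 2 lower were CDH22 (-32.5 points) and CDH16 (-22 points), both below the middle of the array in both lines. The counts were 1 higher and 0 lower of 27 integrins and laminins with ITGA2 alone, 1 higher and 0 lower of 28 epithelial junction genes with SPINT1 alone, 1 higher and 0 lower of 29 mesenchymal genes with CDH11 alone, and 0 higher and 0 lower of 17 keratins. Matrix proteases and inhibitors gave 1 higher and 1 lower of 34, with the aggrecanase ADAMTS1 at 20.2 points and the lysosomal protease cathepsin D (CTSD) at -21.9 points. Of 10 measured members of the CD96 and nectin family, CD96 was past the rule, while its ligand PVR was at 70.2 ± 2.06 and 72.7 ± 1.05 and NECTIN1 and NECTIN2 differed by -12.9 and -11.7 points. Actin and myosin genes gave 0 higher and 1 lower of 22, MYL9, and S100 proteins 0 higher and 2 lower of 16, S100A6 (-25.9 points) and S100A13 (-24.4 points). The second probe set of S100A13 differed by 16.3 points, the opposite way. Sialyltransferases and proteoglycans gave 0 higher and 1 lower of 25, the syndecan SDC3 at -21.5 points, and annexins 0 higher and 0 lower of 11.

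ErbB ligands and MAPK feedback genes gave 2 higher and 0 lower of 26, TGFA and EREG, with a median of 4.47 points over the list. AP-1 and immediate early genes gave 1 higher and 0 lower of 23, EGR1, and YAP and TEAD genes 0 higher and 1 lower of 16, the muscle ankyrin repeat gene ANKRD1 at -21 points. NF-kB and cytokine genes gave 2 higher and 1 lower of 30, with CXCL8 and PTGS2 higher and CCL2 lower. Cytokine receptors gave 1 higher and 2 lower of 28, with IL18R1 (24.3 points) higher and IL7R and CSF2RA (-21.3 points) lower. Interferon-stimulated genes gave 2 higher and 1 lower of 37, with OAS1 and IFI44L (34.6 points, from 11.7 ± 1.80 to 46.3 ± 1.99) higher and the regulator IRF7 (-24.9 points) lower, and a list median of 1.68 points. Antigen presentation genes gave 0 higher and 0 lower of 22. TGF-beta, activin and BMP genes gave 2 higher and 1 lower of 36, with the HLH inhibitor ID4 at 36.8 points (3.16 and 42.1 by its other probe sets), LTBP1 and INHBB. Wnt genes gave 1 higher and 0 lower of 32, the secreted antagonist DKK3 at 21.5 points (-1.54, 1.55, 2.26 and 2.63 by its other probe sets), IGF axis genes 0 higher and 2 lower of 15, IGFBP7 and IGFBP2 (-20.8 points), Notch genes 0 higher and 0 lower of 17 and Eph receptors and ephrins 0 higher and 0 lower of 18.

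Chromatin genes showed no member past the rule in most lists. With 3.43% of all genes past it, few members would be counted in lists of this size, so a count of 0 says little. The counts were 0 higher and 0 lower of 9 LSD2 partners and paralog, 0 higher and 0 lower of 36 histone demethylases and methyltransferases, 0 higher and 0 lower of 16 HDACs and sirtuins, 0 higher and 0 lower of 13 DNA methylation genes and 0 higher and 0 lower of 19 imprinted genes. KDM1A, the paralog LSD1, was at 77.8 ± 0.84 in scramble and 85.3 ± 0.95 in eGFP/Flag, and the LSD2 partner GLYR1 at 58.6 ± 1.47 and 66.1 ± 2.13. HDAC2 differed by 8.19, NSD3 by 7.17, RCOR1 by 3.66, PHF21A by 2.35, HDAC1 by 0.87, EHMT2 by -0.36 and RCOR3 by -4.20 points. The 14 measured histone genes had 0 higher and 0 lower, yet their median of -8.39 points was beyond 5 points, unlike those of the other 50 lists. HOX genes gave 1 higher and 0 lower of 24, HOXB2 at 21.2 points. Cancer-testis genes gave 2 higher and 0 lower of 19, MAGEB1 and MAGEB2, against a list median of -0.86 points.

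In cell cycle and survival lists, single genes passed the rule. S phase genes gave 1 higher and 0 lower of 39, the transcription factor E2F1 at 22.4 points (0.68 by its second probe set), and G2 and M phase genes 0 higher and 1 lower of 40, CDC20, with list medians of 1.66 and 0.78 points. D cyclins, CDK inhibitors and RB family genes gave 0 higher and 1 lower of 17, the inhibitor CDKN2D at -22.4 points (-0.15 by its second probe set). Among p53 targets and apoptosis regulators there were 2 higher and 1 lower of 29, with the BCL2 family member BCL2A1 (42.9 points, from 3.54 ± 0.65 to 46.4 ± 6.64) and CASP8 higher and the effector BAK1 (-21 points) lower. Pluripotency and breast stem cell markers gave 1 higher and 0 lower of 17, CD24 at 20.3 points, whose 5 other probe sets differed by -12.5, 5.56, 12.6, 22.2 and 32.5 points.

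In metabolic lists other than the ABC transporters, the members past the rule were on the lower side. Median scramble ranks were 95.4 for respiratory chain, 88.7 for TCA cycle and 87.1 for unfolded protein and amino acid response genes. Genes near the top of the range cannot rise by 20 points, so the rule could count few of these as higher. The unfolded protein and amino acid response list gave 0 higher and 3 lower of 29, namely the mTOR inhibitor DDIT4 (-25.5 points), the serine synthesis enzyme PSAT1 (-21.2 points) and SDF2L1 (-20.3 points). Glycolysis and hypoxia genes gave 0 higher and 1 lower of 35, ADM, with a list median of 0.99 points. Respiratory chain genes gave 0 higher and 1 lower of 32, COX8A at -21.8 points, TCA cycle genes 0 higher and 1 lower of 22, IDH3G at -20.02 points (-5.92 by its second probe set), and cholesterol and fatty acid synthesis genes 0 higher and 1 lower of 23, EBP at -22 points, whose other probe sets differed by -9.61 and 20.7 points. The shares past the rule were 2.86% for glycolysis and hypoxia, 3.13% for respiratory chain, 4.55% for TCA cycle and 4.35% for cholesterol and fatty acid synthesis genes. These are near the 3.43% of all genes, while the unfolded protein and amino acid response list stood at 10.3%. Ribosomal protein genes gave 0 higher and 0 lower of 31, a list that does not hold RPLP2. ABC transporters gave 2 higher and 2 lower of 25, with the cholesterol exporter ABCA1 (20.2 points) and ABCC1 (21.8 points) higher and the peroxisomal ABCD3 (-31.1 points) and ABCA7 (-24.5 points) lower. The second probe set of ABCC1 differed by -59.1 points, the opposite way, and the other probe sets of ABCA1 by 3.84 and 8.03 points.

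Of 84 measured markers of other cells, 3 were higher and 1 lower (4.76%, against 3.43% of all genes). Luminal markers gave 0 higher and 0 lower of 19, basal markers 0 higher and 0 lower of 11, blood cell markers 1 higher and 0 lower of 15 (LCP1), fibroblast and endothelial markers 1 higher and 1 lower of 20 (TEK at 23.9 points, -1.70 by its second probe set, and CLDN5 at -24 points), and embryonic kidney and neural markers 1 higher and 0 lower of 19 (EYA1 at 33.3 points, from 12.6 ± 0.91 to 45.9 ± 2.45). The list medians were -0.47, -3.36, 0.41, -1.90 and 0.33 points.

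The share of genes past the rule, given here as a description, varied among chromosomes. On chromosome X, 24 of 463 measured genes were higher (5.18%) and 9 lower (1.94%), against 1.81% and 1.61% over all genes, and 7 of the 24 did not divide the arrays by set. On chromosome 4, 16 of 452 genes were higher and 1 lower, and on chromosome 3, 15 of 655 were higher and 2 lower. On chromosome 19 the balance was the other way, with 6 of 810 higher and 34 lower, and likewise on chromosome 16 with 5 of 524 higher and 19 lower (6 of them metallothioneins), on chromosome 20 with 4 of 331 higher and 12 lower, and on chromosome 22 with 2 of 312 higher and 11 lower. The median differences were -3.22 points on chromosome 19, -2.92 on chromosome 22, -2.24 on chromosome 20 and -2.07 on chromosome 17, and 2.34 on chromosome 4 and 1.95 on chromosome 3.

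Windows of 25 neighbouring measured genes, chosen for their extreme medians and so given without a test, showed shorter stretches. The highest lay on chromosome X from TEX13A to CAPN6, with a median of 12.4 points, 21 of 25 genes above 0, and 8 genes higher by the rule, led by RADX, the basement membrane collagen gene COL4A5 (42.4 points), TBC1D8B (39.2 points) and CHRDL1. In the same window the LSD2 shRNA line differed from the scramble line by a median of 0.59 points. The next were on chromosome 8 from ZFPM2 to HAS2, with a median of 9.64 points and 3 genes higher, CCN3, ZFPM2 (31.2 points) and ENPP2 (20.9 points, 4.00 by its second probe set), and on chromosome 7 from STEAP4 to PON2, with a median of 8.96 points and 1 gene higher, STEAP1 (31.7 points). The lowest window was on chromosome 19 from MED16 to MBD3, with a median of -9.98 points and 5 genes lower, namely ABCA7, FAM174C, the creatine synthesis gene GAMT, the complex I subunit gene NDUFS7 (-26.4 points) and the ATP synthase subunit gene ATP5F1D (-24.3 points). The next were on chromosome 11 from IRF7 to TNNI2, at -9.03 points with IRF7 and CTSD lower and RPLP2 higher, and on chromosome 17 from DVL2 to CHD3, at -8.88 points with 4 genes lower, MPDU1 (-29.9 points), ELP5 (-29.5 points), YBX2 (-29 points) and the translation factor EIF5A (-28.3 points). In the chromosome 17 window the LSD2 shRNA line differed from the scramble line by a median of -2.90 points, and in each of the other 5 windows by a median from -2.15 to 1.28 points. The part of the separate normalizations and of the labelling controls in these stretches was not tested.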

How the data were processed

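For each of 12 arrays, the authors deposited log2 signals of 22277 probe sets, made with RMA per the submitters' processing notes. No source used here gives its software or version. The deposited log2 values had medians from 6.65 to 6.71 on the 6 shRNA arrays and from 7.03 to 7.18 on the 6 vector arrays, and were treated as separately normalized. Precision is limited by the number of arrays. Gene names came from an annotation of the platform that may be outdated, with symbols updated through a RefSeq gene table (19052 of 19064 matched). Probe sets naming 1 gene were used (19064; 1043 named several genes, 2108 none, and 62 were controls), and for 4310 genes with several the brightest over all 12 arrays was taken. Each of 11963 genes got its percentile rank within the array (Python 3.11.15, pandas 2.3.3), and group means of 3 arrays were subtracted, with no test across the separately normalized sets. The rank comparison was tested on simulated arrays with known rises, where the second set had another scale. Effects on single probe sets were not simulated, so the simulation does not cover them. Where a log2 difference is given, all 12 arrays were quantile normalized first.

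Genes were named by a written rule: the 12 largest differences in each direction with a brighter mean of at least percentile 50, up to 3 members in each direction per list, all LSD2 partners and nectin family members, up to 4 leading genes per chromosome window, and the 5 largest log2 differences in each direction. Genes grouped by the placement of the LSD2 lines, or by concordant probe sets, and the metallothioneins were chosen after their values were seen. The comparison, lists and rules were chosen with earlier results of these data known. Promoters came from RefSeq on GRCh38.p14. Coordinates in the gene table were used to order genes along chromosomes and for nothing else.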

Additional observations from a re-analysis of the deposited data

How the results depend on the processing

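The numbers of higher and lower genes depended on the threshold and the scale. They were 217 and 193 as reported, 1177 and 1175 at 10 points, 57 and 35 at 30 points, 879 and 874 at 1 log2 unit after quantile normalization, and 1166 and 1057 at 1 log2 unit after a shift to equal medians. All 217 and 193 genes were also past 1 log2 unit after quantile normalization. This step keeps the ranks within each array, so their direction could not change and the count is no separate check. Without genes under percentile 50 in both groups they were 127 and 153. With alternatives added after the data were seen, 55 and 17 were counted where the vector and shRNA arrays were not apart, and 29 and 10 where another probe set was past 20 points in the same direction. Ranks over all probe sets gave 265 and 159, and the mean of all probe sets of a gene 213 and 139. Leaving out each array in turn gave 204 to 226 higher and 179 to 195 lower genes. Of 170 named genes, ABCC1 alone reversed, at -19.8 points with the mean of its probe sets, and none reversed without an array or with ranks over all probe sets. None reversed on the log2 scale after quantile normalization, where genes without overlap could not. The difference moved by more than the replicate spread in 110 of 170 named genes when probe sets were averaged and in 81 with ranks over all probe sets, and the median in 16 and 6 of 51 lists. Differences are limited by dim genes at the bottom of the range and by the ceiling at its top.

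With the replicate block, as differences between arrays of equal replicate number, 217 and 193 genes were counted, as without it. The mean of such differences equals the difference of group means, so the size of a difference could not change. Deviations of equally numbered arrays correlated at 0.043, -0.34 and -0.29, and 1 of 3 eGFP/Flag arrays correlated best with its own number, so the numbers were not taken to pair the arrays.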
